A study of Rattus norvegicus with 6 samples.

Results

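The genes described here were 10 markers and regulators of the contractile state of vascular smooth muscle: Acta2, Tagln, Cnn1, Myh11, Smtn, Lmod1, Cald1 and Des, which encode proteins of the contractile filaments and the cytoskeleton, and Myocd and Srf, which encode transcription factors that act on such genes. They were selected by gene symbol from a count table that lists 22574 symbols, and all 10 were found there. Primary rat aortic smooth muscle cells (RASMCs), isolated from the aortas of male Sprague-Dawley rats aged 8 weeks, were exposed to H3CIT+dsDNA, a mixture of histone H3 in its citrullinated form (H3CIT, 0.03 μM) and dsDNA, DNA in its double-stranded form, at 300 ng/ml, both of them components of extracellular traps. Control RASMCs received bovine serum albumin (BSA). Each group comprised 3 mRNA libraries, and total gene counts ran from 17573905 in H3CIT+dsDNA replicate 2 to 18742395 in control replicate 2. The study states for its cell culture experiments that cells of the same rat were divided over separate wells, so the p-values below measure the spread between wells and library preparations and not the spread between animals. The comparison asks how the components of extracellular traps change the mRNA of contractile genes in cultured smooth muscle cells.

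In differentiated arterial smooth muscle, force comes from actin and myosin filaments together with calponin, caldesmon and transgelin, which bind actin. Serum response factor, the product of Srf, binds a DNA element called the CArG box in the promoters of many of these genes, and myocardin, the product of Myocd, is its muscle-restricted coactivator. Smooth muscle cells of the arterial wall can lower these genes and take up a synthetic, matrix-producing state, and the loss of contractile markers is commonly used to describe that change. The cell type in the labels was checked against 12 smooth muscle markers, namely 9 of the 10 genes above (all but Srf) with Myl9, Mylk and Tpm2, and the lowest count of any of them in any library was 320, for Myocd in control replicate 1.

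After H3CIT+dsDNA, 4 of the 10 genes fell (Cnn1, Acta2, Tagln and Smtn), 1 rose (Myocd), and 5 were not called (Myh11, Cald1, Lmod1, Des and Srf). A gene was called when its adjusted p in edgeR's quasi-likelihood test was under 0.05. These are calls on the deposited counts, and the control counts of Acta2 and Cnn1 carry an unusual digit pattern, described below. Over all 12591 genes tested, 2.2% were called in either direction, 0.262% as lower and 1.94% as higher. All 10 passed the filter on low counts, and their median log2 fold change was -0.06, against a median of -0.0013 over all genes tested. In 7 of the 10 genes the normalised levels (CPM scaled by TMM) of the groups did not overlap, 5 being lower and 2 higher after H3CIT+dsDNA, against 19.1% of all genes tested. Among these, the groups of Lmod1 overlapped when scaled by library total alone. In bulk RNA, fewer cells with a transcript and less of that transcript per cell cannot be told apart.

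**Figure D1:**
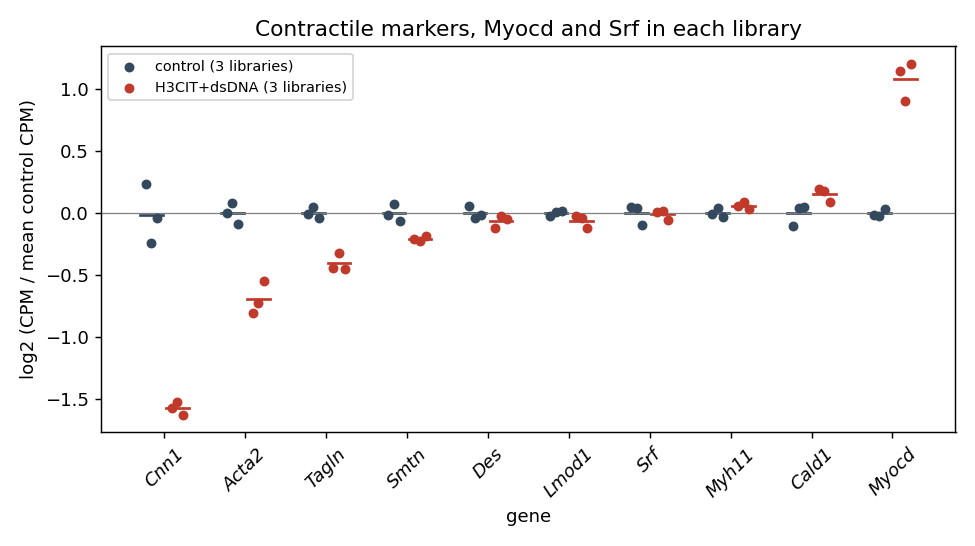
Level of each gene in each library as the log2 ratio of its CPM (counts relative to the TMM-scaled library total) to the mean CPM of the 3 control libraries. Points are single libraries, short lines are the mean of the points of each group, and genes are ordered by fold change from Cnn1 (-1.57) to Myocd (1.09).

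Acta2 encodes smooth muscle alpha-actin, the main actin of the contractile thin filament. Its counts were 52005, 53594 and 62392 in the H3CIT+dsDNA libraries and 89777, 98777 and 87659 in the control libraries. Every H3CIT+dsDNA library lay below every control library, with H3CIT+dsDNA replicate 3 nearest to them. Mean CPM was 3115 ± 291.6 (SD, n = 3) after H3CIT+dsDNA and 5025 ± 300.1 (SD, n = 3) in control cells. Acta2 fell by 0.69 on the log2 scale, with a standard error (SE) of 0.06 and an adjusted p of 6.51e-06 by edgeR. Actin transcripts are alike over long stretches, so some reads may have been left uncounted or counted for another actin gene, which was not tested.

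Tagln encodes transgelin (SM22-alpha), an actin-binding protein and an early marker of the smooth muscle lineage. The stimulated libraries held 35789, 38008 and 35702 Tagln counts and the control libraries 47689, 51704 and 48468. The groups were again fully apart, by a smaller margin than for Acta2. Tagln fell by 0.40 on the log2 scale (SE 0.04), and the adjusted p by edgeR was 2.86e-05.

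Cnn1 encodes calponin 1, which binds actin and restrains the actomyosin ATPase. In the stimulated libraries 2546, 2558 and 2448 counts were recorded, and in the control libraries 8766, 6566 and 7555. The stimulated libraries were close together and far below the control libraries, among which the highest and the lowest differed by more than the whole range of the stimulated ones. Mean CPM was 140.1 ± 5.16 (SD, n = 3) against 417 ± 69.2 (SD, n = 3). In the deposited counts this was the lowest fold change of the 10 genes, with a log2 fold change of -1.57 (SE 0.09) and an adjusted p of 9.54e-08 by edgeR.

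The control counts of Acta2 and Cnn1 had a pattern in their digits, which was looked for after the values were seen. In Acta2, 10 of the 12 pairs of neighbouring digits within the control counts differed by no more than 1 (83.3%), and in Cnn1 it was 8 of 9 pairs (88.9%). The same share was 31.2% over the 33712 pairs in control counts of at least 1000 of genes that were not called. In the stimulated libraries it was 16.7% for Acta2 and 33.3% for Cnn1. In counts scaled by library total alone, the coefficient of variation of Cnn1 among the control libraries was 16.5%, against a median of 3.11% over the 3677 tested genes with a control mean of at least 1000. Counts under 1000, such as those of Myocd, were left out of this measure. The deposited counts were not compared with the sequencing reads, so whether these control counts are read counts is not known, and the fold changes and p-values of Acta2 and Cnn1 rest on them. The origin of the pattern, and its part in those fold changes, was not tested.

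Smtn encodes smoothelin, a cytoskeletal protein found in contractile smooth muscle. It had 1007, 969 and 1030 counts after H3CIT+dsDNA and 1137, 1256 and 1143 counts in control cells. The groups did not overlap, but the difference was small, with a log2 fold change of -0.21 (SE 0.05) and an adjusted p of 0.0386 by edgeR. The call did not hold in 9 of 15 alternative analyses. DESeq2, the tool of the study's own methods, gave an adjusted p of 0.0734, and the adjusted p over all alternatives ranged from 0.0176 to 0.202.

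Myh11 encodes smooth muscle myosin heavy chain, the motor of the thick filament and the marker held to be most restricted to smooth muscle. Its counts of 6770, 6750 and 6699 after H3CIT+dsDNA overlapped those of 6385, 6856 and 6525 in control cells. The log2 fold change was 0.06 (SE 0.03) with an adjusted p of 0.461 by edgeR. Cald1, which encodes the actin-binding protein caldesmon, had 16747, 16169 and 15640 counts after H3CIT+dsDNA and 13453, 15462 and 15539 in control cells. Its CPM values were all higher in the stimulated libraries, by a small margin over control replicates 2 and 3. The log2 fold change of Cald1 was 0.16 (SE 0.04), and the adjusted p was 0.102 by edgeR and 0.0168 by DESeq2, with a range of 0.0168 to 0.368 over the alternatives.

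Lmod1 encodes leiomodin 1, which nucleates actin filaments in smooth muscle. Stimulated cells had 1917, 1842 and 1793 Lmod1 counts and control cells 1890, 2001 and 2012. In CPM scaled by TMM its groups did not overlap, though H3CIT+dsDNA replicate 1 (105.7 CPM) and control replicate 1 (105.9 CPM) nearly met. Scaled by library total alone, H3CIT+dsDNA replicate 1 was above control replicate 1, so the groups overlapped. The log2 fold change of Lmod1 was -0.06 (SE 0.04), with an adjusted p of 0.563 by edgeR. Des encodes desmin, the intermediate filament protein of muscle, and had 3438, 3568 and 3614 counts after H3CIT+dsDNA against 3825, 3705 and 3770 in control cells. The CPM values of Des overlapped, and the log2 fold change of -0.06 (SE 0.04) had an adjusted p of 0.530 by edgeR.

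Among the transcription factors, Myocd had 725, 596 and 757 counts after H3CIT+dsDNA and 320, 330 and 343 counts in control cells. Every stimulated library exceeded every control library, and the stimulated libraries were the more variable, with H3CIT+dsDNA replicate 2 the lowest of them. Mean CPM was 38.5 ± 4.14 (SD, n = 3) against 18.1 ± 0.368 (SD, n = 3). Myocd rose 2.13-fold, a log2 fold change of 1.09 (SE 0.08), with an adjusted p of 1.60e-06 by edgeR. Srf had 2091, 2048 and 2003 counts after H3CIT+dsDNA and 2112, 2191 and 1991 counts in control cells. The Srf groups overlapped, and its log2 fold change was -0.01 (SE 0.05) with an adjusted p of 0.966 by edgeR. The ratio of Myocd to Srf counts within a library was 0.347, 0.291 and 0.378 after H3CIT+dsDNA and 0.152, 0.151 and 0.172 in control cells. These ratios were apart in all libraries. The rise of Myocd mRNA stood beside lower Cnn1, Acta2, Tagln and Smtn mRNA in the same libraries.

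The CPM of the 10 genes summed to 6785, 7155 and 7275 after H3CIT+dsDNA and to 9825, 10177 and 9429 in control cells. The ratio of the group means was 0.721. Without Acta2 and Tagln the ratio was 0.919, with sums of 1943, 1958 and 1872 against 2123, 2067 and 2095 CPM. With Cnn1 left out as well the direction turned, to a ratio of 1.06, with sums of 1803, 1812 and 1737 against 1632, 1714 and 1688 CPM. The groups did not overlap in any of these sums, and the lower full sum came from Acta2, Tagln and Cnn1, of which Acta2 and Cnn1 have the digit pattern in their control counts. The genes left out had the lowest fold changes of the 10, so a higher ratio without them follows from their choice. Most of the difference that remained was in Cald1 (mean CPM 901 after H3CIT+dsDNA and 808 in control cells), which was not called.

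Other members of the same protein families were then examined. Of the 7 actin genes, 5 were tested and only Acta2 was called by edgeR, in every one of the 15 alternatives too. Actg2, the gamma-actin of smooth muscle, had 21934, 23027 and 21738 counts after H3CIT+dsDNA and 23703, 24956 and 23935 in control cells (log2 fold change -0.09, SE 0.04, adjusted p 0.281 by edgeR). The ratio of Acta2 to Actg2 counts within a library was 2.37, 2.33 and 2.87 after H3CIT+dsDNA and 3.79, 3.96 and 3.66 in control cells. For the cytoplasmic actins Actb and Actg1 the log2 fold changes were -0.05 and -0.13, with adjusted p values of 0.480 and 0.387 by edgeR. Actg1 had 41986, 41765 and 34772 counts after H3CIT+dsDNA, with replicate 3 the lowest, and 42687, 44594 and 44702 in control cells. With a library left out, its log2 fold change ran from -0.18 to -0.04. Skeletal actin Acta1 had few counts, 16, 46 and 17 against 10, 11 and 14, and was not called (adjusted p 0.233 by edgeR). Cardiac actin Actc1 and Actbl2 had 0 counts in every library.

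All 3 calponin genes, Cnn1 among them, were called lower by edgeR. Cnn2 encodes the calponin found also outside muscle, and had 1833, 1693 and 1837 counts after H3CIT+dsDNA and 5000, 5220 and 5154 in control cells. Its libraries were tight within each group and far apart between them, with a log2 fold change of -1.49 (SE 0.04) and an adjusted p of 4.86e-11 by edgeR. In counts scaled by library total alone, its coefficient of variation was 0.266% among the control libraries and 3.23% among the stimulated ones. The control value was unusually low, since 99.3% of the tested genes with a control mean of at least 1000 had one as high. Cnn3, the acidic calponin, had 10667, 10124 and 10232 counts after H3CIT+dsDNA and 23345, 34566 and 43566 in control cells. The stimulated libraries again lay together while the control libraries were widely spread, with a coefficient of variation of 28.7% on the same scale as that of Cnn1. The log2 fold change of Cnn3 was -1.68 (SE 0.15) with an adjusted p of 7.94e-06 by edgeR, but with robust dispersion estimates the adjusted p was 0.0597, the highest in a range that starts at 1.46e-10. In the control counts of Cnn3, 11 of 12 pairs of neighbouring digits differed by no more than 1 (91.7%). That share was 75% in its stimulated counts, and 44.4% and 11.1% in the control and stimulated counts of Cnn2. For Cnn3, too, the fold change rests on control counts that were not compared with reads.

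For transgelin 2 (Tagln2) the log2 fold change was -0.02, with an adjusted p of 0.795 by edgeR, and Tagln3 had 1 count in control replicate 3 and 0 counts in the other libraries. Among intermediate filament genes related to Des, the log2 fold changes of Vim, Synm and Nes were -0.02, 0.13 and 0.05, and their adjusted p values by edgeR were 0.848, 0.311 and 0.864. Of 17 paralogs of Tagln, Cnn1, Myh11, Smtn, Lmod1 and Des, 13 were tested, 2 were called lower (Cnn2 and Cnn3) and 0 higher. None was called higher by DESeq2 or limma-voom, and 1 had a positive fold change with an unadjusted p under 0.05 in edgeR. The median log2 fold change of the 13 was -0.0014.

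The wider contractile apparatus was represented by 40 further genes for myosin light chains, tropomyosins, focal adhesion and Z-line proteins and related products, of which 38 were tested. By edgeR 2 were called higher and 0 lower. DESeq2 called 3 higher and limma-voom 2, and both called 0 lower. At an unadjusted p under 0.05 in edgeR, 7 had a positive and 3 a negative fold change. Counts at this cutoff, here and for the other lists, were not set beside the share of all genes tested. Their median log2 fold change was -0.0010, and in 30 of the 38 (78.9%) the size of the log2 fold change was under 0.15, near the 74.5% of all genes tested. Ppp1r12a, the targeting subunit of myosin phosphatase, had 1386, 1269 and 1293 counts after H3CIT+dsDNA and 1036, 1176 and 1148 in control cells (log2 fold change 0.26, SE 0.05, adjusted p 0.0106 by edgeR). Nexn, which encodes the actin-binding protein nexilin, had 721, 696 and 687 against 534, 629 and 592 counts (log2 fold change 0.29, SE 0.06, adjusted p 0.0269 by edgeR). Both rises were small and each was lost in some of the alternatives, with adjusted p of up to 0.0858 for Ppp1r12a and up to 0.141 for Nexn. The genes of the list with the highest CPM were Flna, Myl6 and Myl9, which encode filamin A and myosin light chains, and their log2 fold changes were -0.03, -0.05 and -0.05 (adjusted p 0.769, 0.522 and 0.554 by edgeR). The summed CPM of the 40 genes was 17540, 17633 and 17692 after H3CIT+dsDNA and 17704, 18232 and 17368 in control cells, and these overlapped. The overlap rests on Tpm1, at 354.9 CPM in control replicate 3 against 1007 and 1031 CPM in control replicates 1 and 2. Without Tpm1, left out after its values were seen, every stimulated sum was slightly below every control sum. Tpm1 is named after its values were seen: control replicate 3 had 6587 counts, against 17977 and 19139 in the other control libraries and 18763, 18645 and 18467 after H3CIT+dsDNA, and it was not called (adjusted p 0.579 by edgeR).

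**Figure D2:**
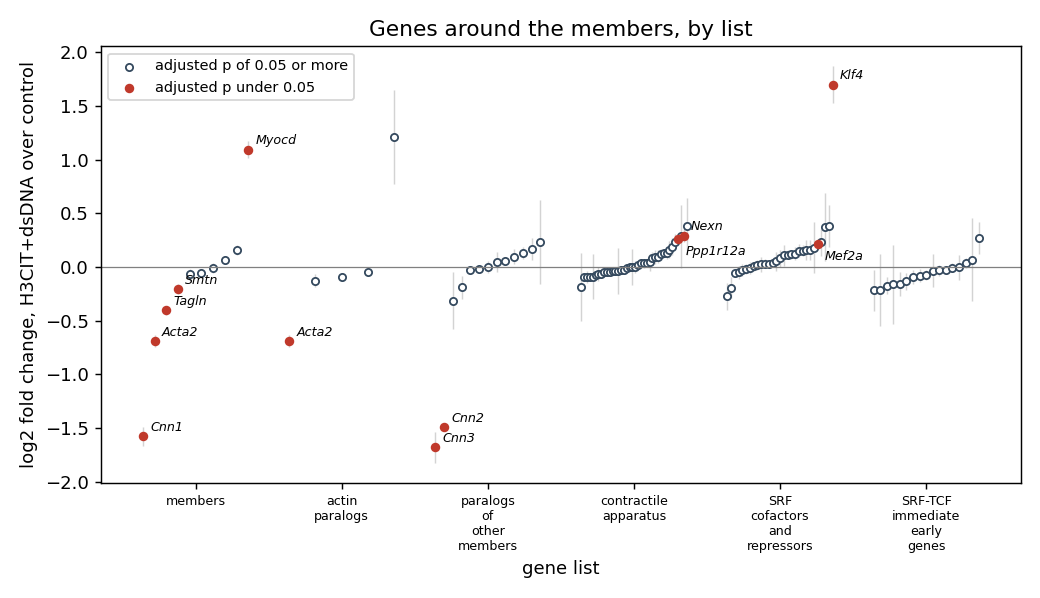
Log2 fold change of H3CIT+dsDNA over control for every tested gene of 6 lists, the first being the 10 genes described above, ordered by value within each list, with grey bars for 1 standard error on each side. Filled points mark genes with an edgeR adjusted p under 0.05, all of which are named, and in the contractile apparatus they are Nexn (0.29) and Ppp1r12a (0.26).

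Of 35 genes for cofactors and repressors of SRF and other factors that act on smooth muscle promoters, 29 were tested, 2 were called higher and 0 lower by edgeR. DESeq2 and limma-voom also called 2 higher and 0 lower. At an unadjusted p under 0.05 in edgeR, 6 had a positive and 0 a negative fold change. Calls over all genes tested also ran mostly higher, with 244 higher and 33 lower by edgeR. The median log2 fold change of the 29 genes was 0.08. Klf4 encodes a Krüppel-like factor known to repress smooth muscle genes and Myocd itself. Klf4 counts of 137, 110 and 141 in stimulated cells stood against 34, 45 and 43 in control cells, so that the lowest stimulated library was well above the highest control library. The log2 fold change of Klf4 was 1.70 (SE 0.17) with an adjusted p of 3.69e-05 by edgeR. Mef2a, which encodes a MADS-box factor like SRF, had 1826, 1724 and 1845 against 1437, 1672 and 1629 counts (log2 fold change 0.22, SE 0.05, adjusted p 0.0334 by edgeR). The rise of Mef2a was lost in 6 of the 15 alternatives, with adjusted p of up to 0.175. The genes of the list with the highest CPM were Fhl1, Yap1 and Fhl2, with log2 fold changes of 0.04, 0.03 and 0.01 and adjusted p values of 0.637, 0.759 and 0.971 by edgeR. The myocardin-related coactivators Mkl1 and Mkl2, picked out after their values were seen, had log2 fold changes of -0.06 and 0.23 and were not called (adjusted p 0.472 and 0.470 by edgeR).

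SRF also acts with ternary complex factors on immediate early genes, which respond to growth factors. Of 17 genes listed as such, all tested, 0 were called by edgeR, 0 by DESeq2 and 0 by limma-voom. The share called by edgeR over all genes tested was 2.2%, and 0 calls among 17 genes is near that share. In edgeR 1 of the 17 had an unadjusted p under 0.05, with a negative fold change. The median log2 fold change of the 17 was -0.08, with a range from -0.22 to 0.27. Ctgf, Cyr61 and Dusp1, the genes of the list with the highest CPM, had log2 fold changes of -0.02, -0.08 and -0.01 (adjusted p 0.787, 0.529 and 0.963 by edgeR). Which partner of SRF acts on each gene of the list, Ctgf and Cyr61 among them, was not tested.

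Genes linked to the synthetic state of smooth muscle were set beside the contractile genes. Of 20 such genes 16 were tested, 3 were called higher and 0 lower by edgeR. DESeq2 and limma-voom called 3 higher and 0 lower as well, and 1 gene had a negative fold change with an unadjusted p under 0.05 in edgeR. The called genes were Klf4, Mmp9 and Vcan. Mmp9, a gelatinase, had 175, 180 and 179 counts after H3CIT+dsDNA and 30, 38 and 30 in control cells, with a log2 fold change of 2.47 (SE 0.15) and an adjusted p of 1.88e-07 by edgeR. Vcan, which encodes the proteoglycan versican, had 3919, 3410 and 3883 against 3021, 3342 and 3405 counts (log2 fold change 0.23, SE 0.05, adjusted p 0.0250 by edgeR, up to 0.176 in the alternatives). The genes with the highest CPM, Fn1, Vim and S100a4, had log2 fold changes of -0.0038, -0.02 and -0.08 and adjusted p values of 0.983, 0.848 and 0.323 by edgeR. Cd68, a macrophage marker of this list named after its values were seen, had 13, 19 and 15 counts against 10, 18 and 14 and was not called (adjusted p 0.849 by edgeR).

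Markers of other cell types were examined as lists. No gene tested in these lists was called by edgeR, DESeq2 or limma-voom. Calls were 0 of 6 endothelial, 0 of 5 macrophage, 0 of 3 fibroblast, 0 of 3 pericyte and 0 of 6 striated muscle genes. The share called by edgeR over all genes tested was 2.2%, so 0 calls in lists this short say little about these cell types. In edgeR 1 gene, in the striated muscle list, had an unadjusted p under 0.05. The 8 endothelial markers summed to 116, 120.6 and 112 CPM after H3CIT+dsDNA and to 120, 123 and 125 CPM in control cells, led by Egfl7 and Nos3, while Kdr, named like Ptprc, Itgam and Cd34 below after its values were seen, had 1 count in control replicate 2 and 0 elsewhere. The 8 macrophage markers summed to 73.0, 72.7 and 75.0 CPM against 75.2, 76.6 and 73.5 CPM, led by Cd14, with Ptprc and Itgam at 0 or 1 count in every library. Fibroblast markers summed to 23.8, 23.0 and 22.5 against 26.9, 21.7 and 22.1 CPM, led by Fbln1, with Cd34 at 0. Pericyte markers summed to 367, 365 and 383 against 372, 365 and 393 CPM, led by Pdgfrb, and smooth muscle cells express Pdgfrb too. Striated muscle markers summed to 172, 182 and 172 against 186, 185 and 166 CPM, led by Tnnt2. In each of these 5 lists the summed levels of the groups overlapped. The 6 endothelial genes tested all had a negative log2 fold change, from -0.22 to -0.06 with a median of -0.11. Single markers of few counts, named after their values were seen, were higher in every stimulated library than in every control library: the macrophage marker Aif1, with 8, 9 and 9 counts against 2, 2 and 3, and the striated muscle markers Acta1, given above, and Myog, with 1, 1 and 3 counts against 0 in each control library. Aif1 and Myog did not pass the filter on low counts, and the part of such cells in the results was not tested.

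Promoter sequences were examined for elements known to bind SRF and TEAD factors, since both act on smooth muscle genes. RefSeq promoter windows of the GRCr8 build, from 250 bases before to 50 bases after an annotated start, matched 6 of the 10 genes with 7 windows (Acta2, Cnn1, Smtn, Srf and Des with 1 each, and Cald1 with 2). Tagln, Myh11, Myocd and Lmod1 were not matched. The CArG box, searched on both strands, was in 1.64% of all 33469 windows and in 1 of the 7, that of Srf. With 1 mismatch allowed in its outer letters it was in 14.7% of all windows and in 3 of the 7, those of Srf, Smtn and Cald1. With 1 G or C allowed among its inner letters, a form added after the sequences had been seen, it was in 9.42% of all windows and in those of Srf and Acta2. The TEAD motif CATTCC, which can share only its outer CC with a CArG box, was in 14.2% of all windows and in those of Acta2 and Cald1. The promoter stretches of Acta2, called lower and with runs of the form that allows 1 inner G or C, and of Srf, with 2 CArG boxes and no change in level called, are shown here because they differ in the form of the element. Both lie before the annotated start of the gene. The Srf stretch is at chr9:21923976-21924047 on the plus strand, with its CArG boxes in capitals starting at positions -55 and -35 from the start of the gene entry, which is not the start that this window is drawn around. The Acta2 stretch is at chr1:241172524-241172653 on the minus strand, with the runs that hold 1 inner G or C in capitals, starting at positions -134 and -84 from the start of its gene entry.
Srf: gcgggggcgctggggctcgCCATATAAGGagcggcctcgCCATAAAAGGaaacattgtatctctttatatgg
Acta2: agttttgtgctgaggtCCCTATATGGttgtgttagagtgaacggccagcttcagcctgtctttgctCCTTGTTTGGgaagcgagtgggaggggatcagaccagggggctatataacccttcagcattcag
A match describes the letters only, and binding in these cells was not tested.

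The genes whose levels ran most like those of Acta2 over the 6 libraries, by Pearson's r of log2 CPM, were Rpl9 (r = 0.995), Pdcd6 (0.990), Pfkp (0.987), LOC108348106 (0.987) and LOC108348074 (0.983). The 6 libraries fall into 2 groups, so that r mainly reflects the difference between groups. The log2 fold change of Rpl9 was -0.16 with an adjusted p of 0.0126 by edgeR, against -0.69 for Acta2, while LOC108348106 and LOC108348074 had log2 fold changes of -3.52 and -3.61 (adjusted p 3.17e-05 and 0.000148 by edgeR). The call of Rpl9 was lost in 3 of the 15 alternatives, with adjusted p of up to 0.0918, and that of LOC108348074 with robust dispersion estimates (adjusted p 0.123). For Myh11 the closest genes were Ripk2 (r = 0.989), Ttc7b (0.985), Cd81 (0.984), Bmi1 (0.980) and Carmil1 (0.977), and none of these was called by edgeR, with log2 fold changes from 0.06 for Ttc7b to 0.51 for Cd81, which had 7 to 13 counts.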

How the data were processed

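RNA of 3 H3CIT+dsDNA and 3 control wells was made into stranded mRNA libraries. The authors mapped the reads with TopHat (TopHat2 2.1.1 in the submitters' processing notes, which also name Cufflinks 2.2.1) to Rnor6.0 and deposited raw counts per gene, made with HTSeq 0.6.0. Whether counting used strand was not given in the sources used here. Reads of overlapping and antisense genes may therefore have been left uncounted or counted for the wrong gene.

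Counts were analysed in R 4.3.3 with edgeR 4.0.16: genes of low count were removed (filterByExpr), libraries were scaled by TMM, and groups were compared by a two-sided quasi-likelihood test with Benjamini-Hochberg adjustment over 12591 genes, called at an adjusted p under 0.05. CPM values are scaled by TMM, and log2 CPM for correlations used a prior count of 2. The procedure was tested on simulated data. CPM was not divided by transcript length, so sums, ratios of genes and the choice of genes by CPM give long transcripts more weight, and they serve to compare groups and not genes.

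In 15 alternatives TMM was replaced by the size factors of DESeq2, by upper-quartile factors or by no factors, edgeR by DESeq2 1.42.0 or limma-voom (limma 3.58.1), and the filter by none or by a minimum of 10 counts per library. The others used robust estimates of dispersion, the replicate number as a block, or left out 1 of the 6 libraries. Each changed 1 choice except DESeq2, which used its own scaling and no filterByExpr, with 17196 genes tested. Named genes were the 10 genes, and from each list the called genes (up to 8 by size of change) and the 3 of highest mean CPM, every actin, transgelin, calponin and desmin-family paralog, and the 5 genes most correlated with Acta2 and with Myh11. For any other gene the text states that its values were known when it was picked. The genes and lists were chosen with earlier results of these data known. Results for 1 further gene list are not reported here.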

Additional observations from a re-analysis of the deposited data

How the results depend on the processing

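The calls of Acta2, Tagln, Cnn1 and Myocd held in all 15 alternatives, but not equally well. With robust dispersion estimates in edgeR the adjusted p was 0.0125 for Acta2 and 0.0155 for Cnn1, the highest of their alternatives. In the same fit it was 7.02e-08 for Tagln and 4.04e-10 for Myocd. Over the 150 values of the 10 genes, 139 kept their side of the threshold, 9 lost a call, 2 gained one and 0 reversed a call. Among the 139 the uncalled fold change of Srf changed sign in 4. Of 2090 values for the other named and listed genes, 2061 kept their side of the threshold, 93 of the values changing sign without a call, 23 lost and 6 gained a call.

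The log2 fold change of Smtn was -0.19 with library size alone, -0.21 with DESeq2, -0.21 with limma-voom and -0.21 with the replicate block (adjusted p 0.0546, 0.0734, 0.0583 and 0.0981), and from -0.24 to -0.17 with a library left out. Its call was lost without any 1 of H3CIT+dsDNA replicates 1, 2 and 3 and control replicates 1 and 2. Cald1 gained a call with DESeq2 (0.15) and robust dispersion estimates (0.16). That made 2 of the 10 genes called higher in both.

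The 277 called genes (244 higher, 33 lower) became 212 (182 and 30) with the replicate block. Leaving out a library gave 164 to 357 (147 to 300 higher, 17 to 57 lower): 164 without H3CIT+dsDNA replicate 1, 184 without control replicate 1, and 57 lower without control replicate 3. Lower calls were 58 with no filter and 50 with robust dispersion estimates. In the contractile apparatus 3 genes were called higher with library size alone, DESeq2 and robust dispersion estimates, 1 with the replicate block, and 0 to 2 with a library left out (0 without H3CIT+dsDNA replicate 1 or control replicate 1, 1 without replicate 2 or 3 of H3CIT+dsDNA). The SRF cofactor list had 1 called higher with upper-quartile scaling and with the replicate block, and 1 to 3 with a library left out (1 without H3CIT+dsDNA replicate 1 or 3 or control replicate 1). With robust dispersion estimates 1 paralog, Cnn2, was called lower. The cause of these differences was not tested. Same-numbered libraries did not deviate together (correlations -0.0458, 0.00452 and 0.0355). No pairing by number was seen in the counts, but these values cannot show how the wells were handled.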

Other observations

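The digit pattern in the control counts of Acta2, Cnn1 and Cnn3 was not limited to these genes. It was measured after the values were seen, as the share of neighbouring digits within a count of at least 1000 that differed by no more than 1. Among the 161 genes called with a log2 fold change over 0.5 in size, the share was 68.3% of 259 pairs in control counts and 42.3% of 411 pairs in stimulated counts. Among called genes with smaller changes it was 36.1% and 33.3%, and among genes not called 31.2% and 31.5%. Of the 10 contractile genes, those called had 59.5% of 42 pairs in control counts and 28.2% of 39 in stimulated counts, and those not called 35.4% of 48 and 22.9% of 48. Control counts had 55.6% for Smtn, Srf and Lmod1 alike, of which only Smtn was called, 33.3% for Cald1, 22.2% for Myh11, 16.7% for Tagln and 11.1% for Des. Myocd had no count of at least 1000. The deposited counts were not compared with reads, and the origin of the pattern was not tested.

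In counts scaled by library total alone, Tpm1 had a coefficient of variation of 47.8% among the control libraries, more than nearly all genes, since 0.190% of the tested genes with a control mean of at least 1000 had a coefficient as high.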
